A study of Mus musculus with 2 samples.

Results

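The respiratory chain subunit genes encode the nuclear part of the machinery that turns electrons from food into ATP in mitochondria. They were taken as the protein-coding genes on nuclear chromosomes whose symbols begin with Ndufa, Ndufb, Ndufc, Ndufs, Ndufv, Uqcr, Atp5 or Cox4 to Cox8, plus Sdha, Sdhb, Sdhc, Sdhd and Cyc1. This gave 94 genes of 21911 in the mm10 annotation. By complex they were 36 genes of complex I, 4 of complex II, 9 of complex III, 20 of complex IV and 17 of complex V, the ATP synthase. The prefix Ndufa also took in 8 assembly factors, Ndufaf1 to Ndufaf8, which help to build complex I and are not part of it. Ndufa4 and Ndufa4l2 were counted with complex IV, where their products work. Atp5s, which encodes factor B, was counted with complex V but listed apart from its subunit genes.

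Complexes I and II pass electrons to ubiquinone, complex III passes them to cytochrome c, and complex IV passes them to oxygen, while complexes I, III and IV pump the protons that drive complex V. Several complex IV subunits exist in a general form and in a form of heart and skeletal muscle: Cox6a2, Cox7a1 and Cox8b are the muscle forms of Cox6a1, Cox7a2 and Cox8a. Rodent skeletal muscle takes on the muscle forms as it matures after birth, and the nuclear factors NRF1, GABP, the ERR receptors and YY1 are known regulators of respiratory genes.

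The data were DNase-seq maps of open chromatin, which rest on sequencing the ends that DNase I leaves where nucleosomes or other proteins do not shield the DNA. The 2 libraries were biological replicates of 1 group with no treatment named: gastrocnemius, the large calf muscle, from female B6CASTF1/J mice (the F1 cross of C57BL/6J and CAST) at 14 days of age. Both biosample labels name 3 females, so each library may pool animals, and both carry 1 donor record. A pair of sequencing instruments is named for replicate 2 and none for replicate 1, so sequencing and replicate cannot be told apart. There was no second group and no test between conditions, and in whole tissue an open site in fewer cells and a less open site in all cells cannot be told apart.

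Replicate 1 had 87558 strict peaks and replicate 2 had 79562, and the sources used here give no read totals. A promoter peak of a gene had its midpoint within 1000 bp of a transcription start site of that gene, and its signal was the authors' value for the strongest such peak. Of the muscle marker genes fixed for the tissue check, 8 of 8 had a strict promoter peak in both replicates. Such a peak was found in 4 of 4 endothelial, 3 of 3 fibroblast and 1 of 3 erythroid marker genes, and in 0 of 4 macrophage, 0 of 3 liver, 0 of 3 heart and 0 of 3 testis marker genes. The median signal was 10.1 and 8.89 in replicates 1 and 2 for the muscle markers, 5.29 and 5.52 for the fibroblast markers and 1.87 and 1.37 for the endothelial markers. What other cell types gave to the signal of respiratory genes was not tested.

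The open sites at the start sites of the muscle and general forms are given here as sequences. Whether these sequences set the promoter signal was not tested. Each is shown 5′ to 3′ in the direction of the gene on mm10, from the upstream edge of the site to 30 bases after the annotated start, or to the end of the site where that comes first. Capitals mark bases inside footprints of both replicates, which are short protected stretches within a peak called by the authors at a false discovery rate of 0.01.
Cox6a2 start, chr7:128206357-128206500, minus strand: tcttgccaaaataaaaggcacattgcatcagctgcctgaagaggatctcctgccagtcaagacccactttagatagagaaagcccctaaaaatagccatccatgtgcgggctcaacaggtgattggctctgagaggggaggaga
Cox7a1 start, chr7:30184041-30184174, plus strand: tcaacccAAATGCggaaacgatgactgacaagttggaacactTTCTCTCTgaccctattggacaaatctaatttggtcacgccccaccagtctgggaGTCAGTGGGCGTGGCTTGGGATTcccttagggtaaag
Cox8b start, chr7:140900416-140900540, minus strand: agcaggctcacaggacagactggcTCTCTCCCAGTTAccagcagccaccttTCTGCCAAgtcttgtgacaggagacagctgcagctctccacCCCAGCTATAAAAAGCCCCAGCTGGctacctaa
Cox6a1 start, chr5:115348951-115349160, minus strand: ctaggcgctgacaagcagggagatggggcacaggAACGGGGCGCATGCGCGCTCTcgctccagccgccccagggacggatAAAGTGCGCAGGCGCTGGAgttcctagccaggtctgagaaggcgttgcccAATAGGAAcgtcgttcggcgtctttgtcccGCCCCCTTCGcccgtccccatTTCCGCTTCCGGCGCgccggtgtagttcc
Cox7a2 start, chr9:79759848-79759920, minus strand: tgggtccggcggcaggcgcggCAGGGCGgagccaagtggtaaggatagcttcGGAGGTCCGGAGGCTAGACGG
Cox8a start, chr19:7217586-7217740, minus strand: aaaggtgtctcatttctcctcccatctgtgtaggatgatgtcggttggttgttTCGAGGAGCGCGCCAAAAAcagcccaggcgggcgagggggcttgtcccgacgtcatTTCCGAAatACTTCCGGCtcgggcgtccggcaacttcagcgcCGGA
In these stretches 0 bases were in footprints of both replicates at Cox6a2, against 73 at Cox6a1. The count was 37 bases at Cox7a1, against 28 at Cox7a2, and 46 bases at Cox8b, against 39 at Cox8a. The printed stretches differ in length, and over the whole sites the counts were 9 of 240 bp at Cox6a2 and 73 of 220 bp at Cox6a1. They were 62 of 200 bp at Cox7a1, against 88 of 220 bp at Cox7a2, and 46 of 220 bp at Cox8b, against 42 of 200 bp at Cox8a.

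The Cox8b site held a TATA box, TATAAA, at bases 99 to 104 of the printed sequence and an E-box, CAGCTG, the kind of element that myogenic factors such as MyoD bind, at bases 111 to 116. Both lay inside footprints of both replicates, and a further CAGCTG at bases 76 to 81 did not. The annotated start of Cox8b was base 95, just before the TATA box. The Cox6a2 site held an E-box of the same kind at bases 29 to 34 and a MEF2 match (CTA and TAG with 4 free bases between) at bases 86 to 95, upstream of the start at base 114, and neither touched a footprint of both replicates. The signal of Cox6a2 was only 1.05 and 1.03, and how far footprint calls depend on signal was not tested, so these elements cannot be called unbound. MEF2 factors are regulators of muscle differentiation genes. The Cox6a1 site held the NRF1 element, which is CGCATGCG with a G before and a C after it, at bases 41 to 50 and the ETS element CCGGAAG, the kind that GABP binds, at bases 187 to 193, both inside footprints. The Cox8a site held an ETS element inside a footprint at bases 120 to 126.

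Chromatin was open at the start sites of nearly all respiratory genes. A strict promoter peak was present in both replicates at 91 of 94 genes, while 63.8% of all protein-coding genes, and 63.6% of those other than members, met the same condition. With permissive peaks it was 92 of 94 genes, against 68.3% of all genes. All genes of complexes I, II, III and V had one, as did the 8 assembly factors. A footprint lay in the promoter peak in both replicates at 91 genes, where the share over all genes was 63.2%, or 99.1% of the genes with such a peak. The 3 exceptions were complex IV isoforms of other tissues. Cox7b2 and Cox8c, testis forms, had neither a strict nor a permissive promoter peak in either replicate. Cox4i2, the lung form, had a strict peak of 1.09 in replicate 1 and only a permissive peak of 0.944 in replicate 2.

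The promoter signal of respiratory genes stood in the upper part of the genome's range. Over the 91 genes with a peak the median was 12.7 in replicate 1 and 10.8 in replicate 2, and over all 13969 coding genes with a peak in both replicates it was 7.96 and 7.19. In both replicates 66 of the 91 genes lay above those medians. Ranked by the mean of both replicates among those 13969 genes, the members had a median percentile of 70.8, with 35 genes above the 75th percentile and 6 below the 25th. Other genes of the mitochondrion gave lower or like values: the median was 9.57 and 8.50 for the 78 mitochondrial ribosomal protein genes, all with a peak, and 12.3 and 10.7 for the 37 of 38 assembly factor genes outside the prefixes that had one, led by Cox18 with 22.5 and 20.05 and Foxred1 with 22.1 and 19.96. Cytosolic ribosomal protein genes, with a peak at 88 of 98, had medians of 11.9 and 10.4. These medians compare genes within the same libraries.

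**Figure D1:**
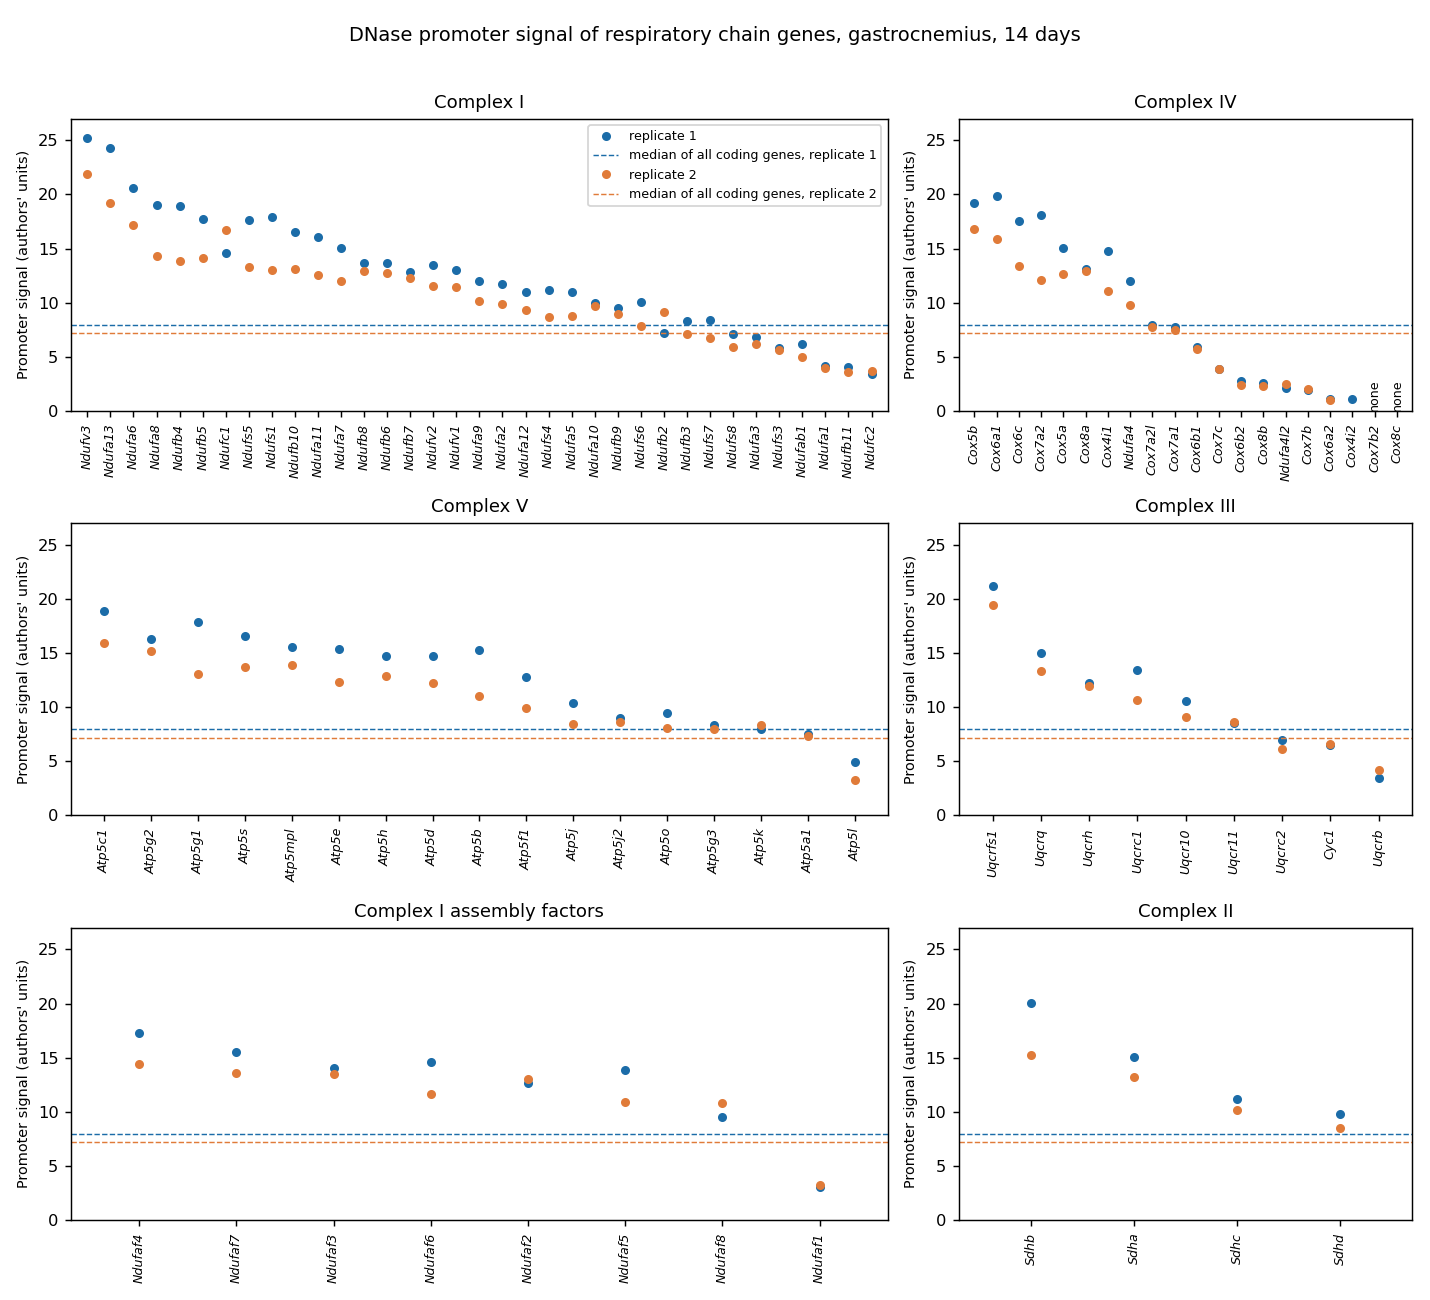
Promoter signal, in the authors' units, of 93 of the 94 genes by complex. Each point is 1 replicate, genes run from high to low mean signal, and dashed lines give the median of all coding genes, 7.96 in replicate 1 and 7.19 in replicate 2; complex IV alone reaches down to values near 1 and to genes with no peak.

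Complex I, the entry point for electrons from NADH, had medians of 12.4 and 10.8 over its 36 genes. Its highest signal was at Ndufv3, an accessory subunit, with 25.2 in replicate 1 and 21.9 in replicate 2. That site also serves as the promoter site of Wdr4 on the opposite strand, with starts 135 bp apart, so its signal cannot be divided. Ndufa13, also known as GRIM-19, followed with 24.3 and 19.2, but its peak was centred 753 bp upstream of the annotated start, in an exon of Tssk6, and no strict peak lay within 200 bp of that start in either replicate. The lowest were Ndufc2, with 3.36 and 3.68, and Ndufb11, with 4.10 and 3.62, both accessory subunits of the membrane arm. The 7 core subunit genes, which include the flavin and iron-sulfur proteins, had medians of 13.0 and 11.4, and the 29 accessory ones 12.0 and 10.2. Their ranges overlapped throughout, 5.81 to 17.9 against 3.36 to 25.2 in replicate 1. In complex I 15 of 36 genes lay above the 75th percentile and 0 below the 25th.

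Among the assembly factors the medians were 14.0 and 12.3. Ndufaf4 had 17.3 and 14.4 and Ndufaf7, a methyltransferase that modifies a core subunit, 15.5 and 13.6. The lowest were Ndufaf8, with 9.50 and 10.8, and Ndufaf1, with 3.04 and 3.22. Ndufaf1 lay below both all-gene medians, and the other 7 lay above them.

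Complex II, succinate dehydrogenase, oxidises succinate in the matrix, and the 2 genes of its catalytic part had higher signal than those of its membrane anchor. Sdhb, the iron-sulfur subunit, had 20.03 and 15.3, and Sdha, the flavoprotein, 15.1 and 13.2. The anchor genes Sdhc and Sdhd had 11.2 and 10.2 and 9.82 and 8.46. The catalytic and anchor genes did not overlap in either replicate, with 2 genes on each side.

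Complex III had medians of 10.5 and 9.05 over 9 genes. Uqcrfs1, the Rieske iron-sulfur protein, was highest, with 21.2 in replicate 1 and 19.5 in replicate 2. Uqcrq was next, with 15.01 and 13.3, from a peak 280 bp upstream of its start in an intron of Gdf9. No strict peak lay within 200 bp of the Uqcrq start in either replicate. Uqcrb was lowest, with 3.45 and 4.23. Cyc1, cytochrome c1, was next by its mean, with 6.51 and 6.57, and Uqcrc2 was below it in replicate 2 with 6.12. The genes of the 2 redox proteins on this list, Uqcrfs1 and Cyc1, were thus near opposite ends of the complex. For comparison, Cycs, which encodes the cytochrome c that complex III reduces, had 26.2 and 20.8, above every member in replicate 1, while the testis form Cyct had no peak.

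The 17 genes of complex V, Atp5s included, had medians of 14.7 and 11.1. Atp5c1, the central stalk subunit gamma, had 18.9 and 15.9, and Atp5g2, a source of the membrane ring subunit c, had 16.3 and 15.2. The catalytic head genes Atp5b (beta) and Atp5a1 (alpha), whose products are present in equal number in the enzyme, had 15.3 and 11.1 for Atp5b and 7.56 and 7.31 for Atp5a1. The 3 genes for the same subunit c protein had 17.8 and 13.0 (Atp5g1), 16.3 and 15.2 (Atp5g2) and 8.40 and 8.03 (Atp5g3), so Atp5g3 was lowest in both replicates. The Atp5g1 peak lay 211 bp upstream of the start, and within 200 bp only replicate 2 had a peak. Atp5l, subunit g, was lowest of the complex, with 4.90 and 3.32. Its strongest peak lay 239 bp upstream of the start, and within 200 bp the values were 3.49 and 2.45.

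Complex IV spanned the widest range in fold, from 1.05 to 19.9 in replicate 1. Tissue isoforms held most of its low end, but the general gene Cox7b, with 1.91 and 2.01, was below Cox8b, and Cox7a1 was above the general genes Cox7c and Cox6b1. The 12 general genes had medians of 13.9 and 11.6, whereas the 5 tissue isoforms with a peak had medians of 2.55 and 2.43. Ndufa4l2, a form induced by low oxygen, is counted with the tissue isoforms throughout. Cox5b had 19.2 and 16.8, and Cox6a1 19.9 and 15.9. Cox4i1, which the enzyme needs for assembly, had 14.8 and 11.1. Of the 6 members below the 25th percentile, 4 were tissue isoforms, Cox6a2, Cox8b, Cox6b2 and Ndufa4l2, and the others were Cox7b and Ndufaf1. Cox7a2l, also called SCAFI, a factor of supercomplexes with complex III, had 7.96 and 7.72 from a peak 301 bp upstream of its start.

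The muscle isoforms were open, but less so than the general forms in the same tissue. Cox6a2 had 1.05 in replicate 1 and 1.03 in replicate 2, against 19.9 and 15.9 at Cox6a1. This is a log2 ratio of -4.09 ± 0.21 (SD, n = 2), and Cox6a2 stood at percentile 4.65 of all genes with a peak. Cox8b had 2.55 and 2.33, against 13.1 and 12.9 at Cox8a, a log2 ratio of -2.41 ± 0.08 (SD, n = 2). Cox7a1 had 7.76 and 7.50, against 18.1 and 12.1 at Cox7a2, a log2 ratio of -0.96 ± 0.37 (SD, n = 2). Each ratio had the same sign in both replicates, and the spread between replicates in the log2 signal ratio was 0.22 (SD over all genes with a peak). Of the 3 muscle forms Cox7a1 was highest, near the middle of the genome at percentile 50.1, and its ratio was -1.22 in replicate 1 and -0.69 in replicate 2. These 3 muscle genes all lie on chromosome 7.

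Isoforms of other tissues or of low oxygen were also low. Cox6b2, a testis form, had 2.75 and 2.43, against 5.88 and 5.73 at Cox6b1, a log2 ratio of -1.17 ± 0.10 (SD, n = 2). Ndufa4l2, a form induced by low oxygen, had 2.13 and 2.53, against 12.0 and 9.81 at Ndufa4, a log2 ratio of -2.23 ± 0.38 (SD, n = 2). So the start of the testis form Cox6b2 gave more signal than those of the muscle forms Cox6a2 and, by 0.2 or less, Cox8b. Cox7b, the general form beside Cox7b2, was itself low at 1.91 and 2.01.

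**Figure D2:**
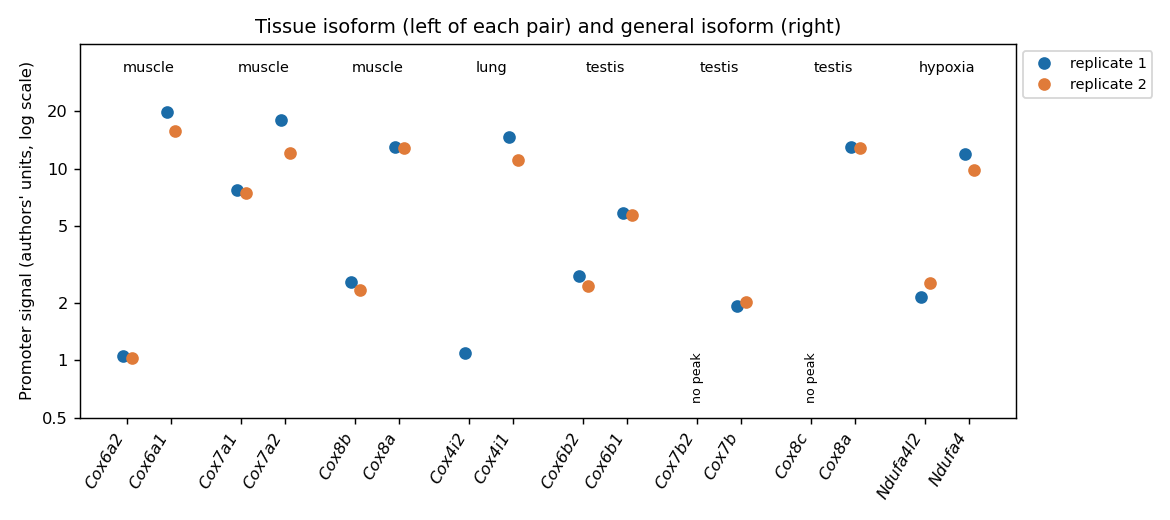
Promoter signal in the authors' units (log scale) of 8 isoform pairs, with the tissue isoform on the left of each pair and the general form on the right. Points are replicates; in each of the 5 pairs with a value for both genes in both replicates the tissue isoform was lower, and by the mean log2 ratio Cox7a1 came closest to its partner.

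The deposited per-base files, which list false discovery rates (q) of the local cut rate where below 0.05, again put each muscle gene below its partner. The lowest q within 1000 bp of the start of Cox6a2 was 1.06e-10 in replicate 1 and 1.10e-05 in replicate 2, against 9.09e-209 and 1.31e-169 at Cox6a1. At Cox7a1 it was 5.07e-32 and 8.23e-43, against 2.13e-163 and 5.69e-110 at Cox7a2, and at Cox8b 5.68e-13 and 3.25e-14, against 1.28e-59 and 2.84e-47 at Cox8a. These rates come from the same cuts as the peaks and are not a separate measurement. Within 1000 bp of the start, 596 and 412 bases had q below 0.05 at Cox6a2, against 883 and 915 at Cox6a1. The median member with a peak had 792 and 788 such bases, and the median of all genes with a peak had 910 and 901, so the median member had the higher signal and fewer such bases.

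**Figure D3:**
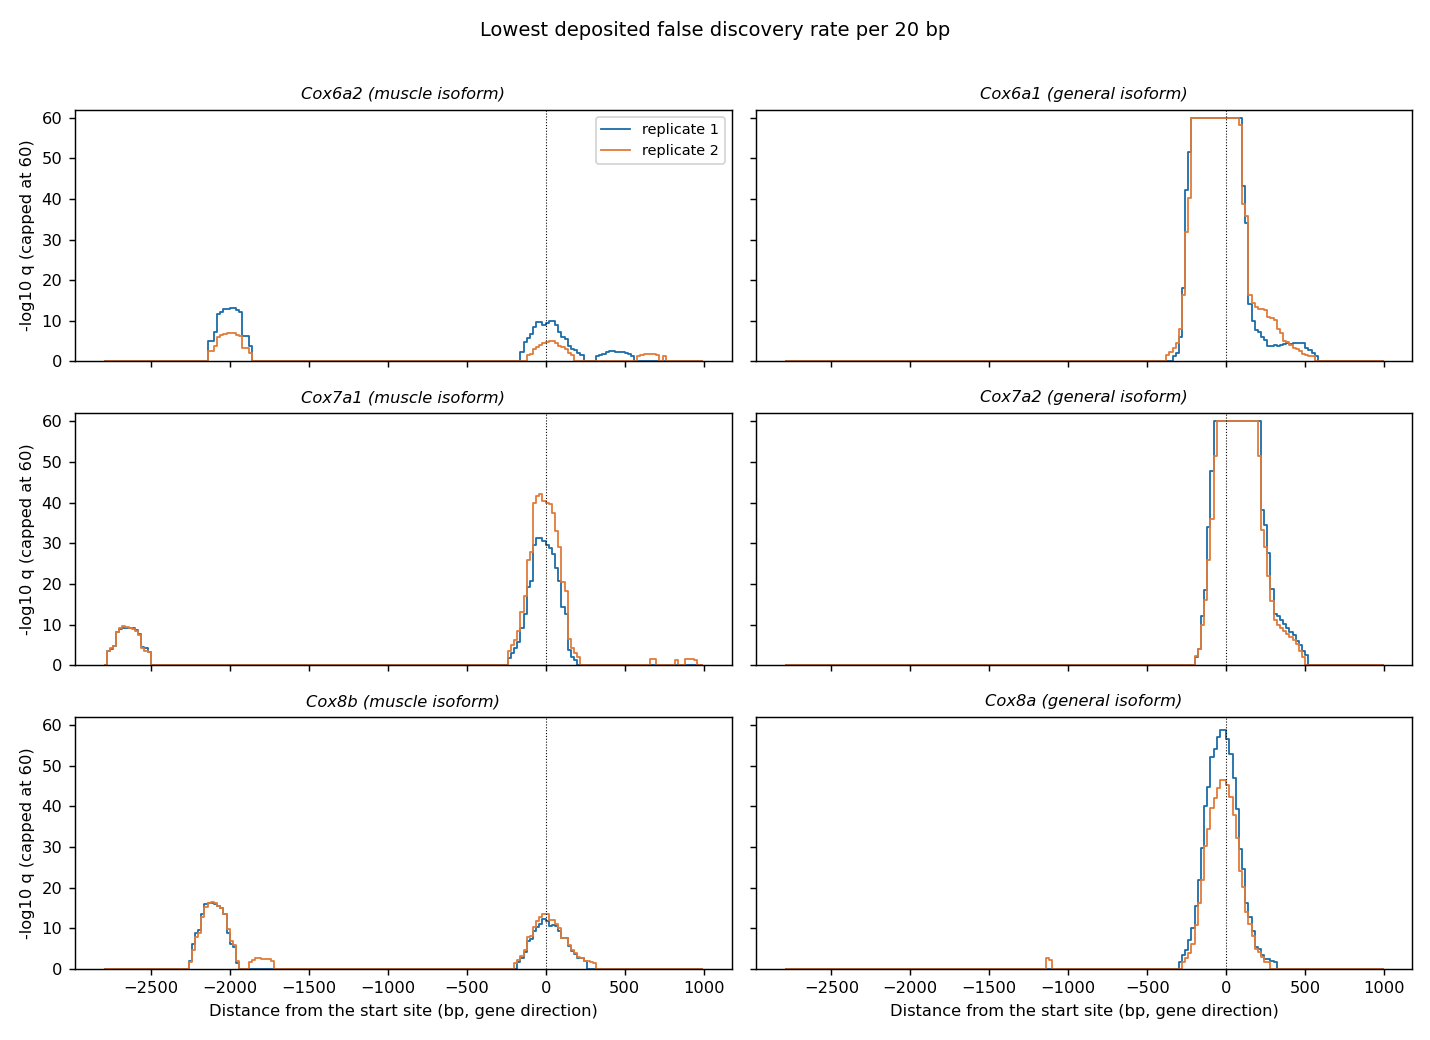
Lowest deposited q per 20 bp, as -log10 q capped at 60, by distance from the annotated start in the direction of the gene, with muscle isoforms in the left column and general forms in the right. Lines are replicates; each muscle gene has a lower peak at its start than its partner and a further peak between 1998 and 2643 bp upstream, where the general forms shown here are flat. Some general members not shown here also have upstream sites.

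Each muscle isoform also had an open site upstream, shown here because at Cox6a2 and Cox8b these exceeded the promoter itself. A distal site was a site shared by both replicates, over 1000 bp from every coding start and assigned to the nearest one within 50 kb. Having such a site is not particular to muscle forms, since 43 of 94 members and 49.2% of all coding genes had at least 1. Among general members, Atp5k had one 1907 bp upstream and Sdhb one 3162 bp upstream. Capitals again mark footprints of both replicates, and the strand is that of the gene.
Cox6a2 upstream, chr7:128208301-128208468, minus strand: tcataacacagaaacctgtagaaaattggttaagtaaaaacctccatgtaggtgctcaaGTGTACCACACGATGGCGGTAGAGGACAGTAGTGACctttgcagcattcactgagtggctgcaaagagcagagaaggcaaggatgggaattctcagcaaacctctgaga
Cox7a1 upstream, chr7:30181401-30181600, plus strand: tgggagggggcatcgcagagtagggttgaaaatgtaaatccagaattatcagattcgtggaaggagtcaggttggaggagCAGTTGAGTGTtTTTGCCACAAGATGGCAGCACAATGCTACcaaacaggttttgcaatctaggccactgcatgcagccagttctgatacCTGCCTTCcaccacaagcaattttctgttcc
Cox8b upstream, chr7:140902461-140902640, minus strand: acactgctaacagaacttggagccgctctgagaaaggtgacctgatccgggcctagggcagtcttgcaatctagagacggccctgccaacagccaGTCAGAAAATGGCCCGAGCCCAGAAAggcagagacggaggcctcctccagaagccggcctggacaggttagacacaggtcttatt
The Cox6a2 site lay 1998 bp upstream, in an intron of Itgad, and had 1.52 and 1.496, against 1.05 and 1.03 at the promoter. Cox8b had intergenic sites with 3.74 and 3.14 at 2105 bp upstream and with 3.15 and 2.75 at 8275 bp, the second not printed. Both were above the Cox8b promoter in both replicates. The Cox7a1 site lay 2643 bp upstream, between genes, and had 2.84 and 2.11, below the 7.76 and 7.50 of its promoter. It held the YY1 element AAGATGGC at bases 101 to 108, inside a CTCF core (CCA, AG and GGC with 2 free bases between each) at bases 97 to 108, and all 12 bases were in footprints. CTCF is a factor of chromatin loops and insulators, and its core was added to the search after the sequences had been seen.

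Such a pattern was uncommon among respiratory genes. Of 41 members with both a promoter peak and a distal site, 3 had a distal site above the promoter in both replicates, which is 7.32%, and the share over all genes was 21.8%. The 3 were the muscle forms Cox6a2 and Cox8b and the form induced by low oxygen, Ndufa4l2. At Ndufa4l2 a site 1936 bp upstream had 8.41 and 9.32, against 2.13 and 2.53 at its promoter. Cox4i2, with no peak in both replicates at its start, had 4 distal sites, the strongest 12498 bp downstream of the start with 9.32 and 7.35. Which gene a distal site acts on was not tested, since sites were assigned by distance alone.

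Respiratory genes had distal sites about as often as other genes. At least 1 was assigned to 43 of 94 members, and to 49.2% of all coding genes. The 89 sites comprised 54 between genes, 30 in introns and 5 in exons, with median signals of 1.62 and 1.53, close to the 1.63 and 1.46 of all distal sites. Cox4i1 had 10, between 10419 and 36189 bp downstream of the start at its promoter peak, in introns of Gm20388, and the strongest had 6.45 and 5.27. Cox6c and Uqcrfs1 had 5 each and Ndufb4 and Sdhb 4 each. The 5 genes of the F1 part of ATP synthase (Atp5a1, Atp5b, Atp5c1, Atp5d and Atp5e) had 0, while 10 of all 17 genes of complex V had at least 1.

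Promoter sites of respiratory genes were closer to the start than those of all genes, with the same median length of 200 bp. The midpoint of the strongest site lay within 100 bp of the start in 82 of 91 members, or 90.1%, and in 69.1% of all genes with a shared site. More than 1 strict promoter peak in each replicate was present at 33 of 91 members, against 7706 of 13969 genes. Summed over each gene, such peaks covered a median of 242 bp in replicate 1 and 200 bp in replicate 2. Over all genes these medians were 373 and 376 bp. Mitochondrial ribosomal protein genes had like values, with 91.0% of sites within 100 bp and medians of 220 and 246 bp, and 89.2% of assembly factors outside the prefixes had sites within 100 bp. Respiratory promoters held a median of 5 footprints in each replicate, against 6 over all genes, whose peaks covered more bases. Per 100 bp of peak the order was reversed, with medians of 1.875 and 2.14 for members and 1.67 and 1.58 over all genes. Atp5j had 20 and 18 footprints and Uqcrh 12 and 11. The Uqcrh peak was centred 370 bp upstream of its start, and within 200 bp of the start its signal was 7.40 and 6.36 in place of 12.2 and 12.0.

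Many respiratory promoters were shared with a neighbouring gene. The promoter site lay within 1 kb of a start of another coding gene in 34 of 91 members, or 37.4%, against 19.2% of all genes with a shared site. The share was 43.6% for mitochondrial ribosomal protein genes and 37.8% for assembly factors outside the prefixes. Such sites give both genes the same signal, which cannot be divided between them. Of 35 pairs of member and neighbour, 34 were on opposite strands, and the median distance between their closest starts was 83 bp. Strands and distances were not counted over all genes, so they cannot be read as a trait of respiratory genes. The single pair on 1 strand was Ndufa13 and Yjefn3. Atp5j shared its site with Gabpa, a subunit of the factor GABP, at a distance of 31 bp between starts, Sdhd with Timm8b, a mitochondrial import gene, at 98 bp, and Ndufs6 and Ndufb5 with the mitochondrial ribosomal genes Mrpl36 at 29 bp and Mrpl47 at 20 bp. By complex the counts were 15 of 36 for complex I, 3 of 4 for complex II, 4 of 9 for complex III, 2 of 17 for complex IV, 6 of 17 for complex V and 4 of 8 assembly factors. None of the 5 tissue isoforms with a peak shared its site, and 2 of the 12 general genes of complex IV did.

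The sites at the highest genes of complexes I and III are shown for their footprints, printed by the same rule as the isoform start sites.
Ndufv3 start, chr17:31519961-31520145, plus strand: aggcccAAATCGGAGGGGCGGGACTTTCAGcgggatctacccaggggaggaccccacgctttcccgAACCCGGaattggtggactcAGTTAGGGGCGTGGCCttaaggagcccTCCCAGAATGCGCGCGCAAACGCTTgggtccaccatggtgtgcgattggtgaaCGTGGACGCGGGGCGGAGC
Uqcrfs1 start, chr13:30545332-30545460, minus strand: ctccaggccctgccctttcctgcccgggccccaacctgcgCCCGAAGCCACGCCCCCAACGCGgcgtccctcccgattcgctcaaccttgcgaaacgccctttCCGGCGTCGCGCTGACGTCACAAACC
Of the printed bases 91 of 185 were in footprints at Ndufv3 and 49 of 129 at Uqcrfs1. Ndufv3 held the SP/KLF element GGGCGG in footprints at bases 16 to 21 and 177 to 182, and Uqcrfs1 the CREB element TGACGTCA in a footprint at bases 116 to 123.

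The 5 tissue isoforms with a peak had the lowest CpG ratios of the 91 members. The ratio of observed to expected CpG in 300 bp around the middle of the site was 0.208 at Cox6a2, 0.315 at Cox8b and 0.444 at Cox7a1. It was 0.220 at Ndufa4l2, within the range of the muscle forms, and 0.528 at Cox6b2, next to the lowest general member with 0.534. The median was 0.865 over the 86 general members and 0.809 over all genes with a site. A ratio below 0.6 was found at 3 of 3 muscle isoforms, 2 of 2 of the others with a peak, Cox6b2 and Ndufa4l2, and 5 of 86 general members, against 20.5% of all genes. The GC content of the muscle isoforms, 50.7% to 58.3%, lay within the 45% to 75.3% of general members. Signal and CpG ratio moved together weakly, with a Spearman correlation of 0.31 over the 91 members and 0.36 over 13952 genes with values. For signal and GC content it was 0.48 over members and 0.13 over those genes, each a description over genes that share both libraries. Among all genes with a ratio between 0.2 and 0.4 the median signal was 2.41. Cox8b with a mean of 2.44 lay at that median and Cox6a2 with 1.04 below the lower quartile of 1.43. Between 0.4 and 0.6 the median was 3.89 and Cox7a1 had 7.63. The part of base composition in the low signal of muscle isoforms was not tested.

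**Figure D4:**
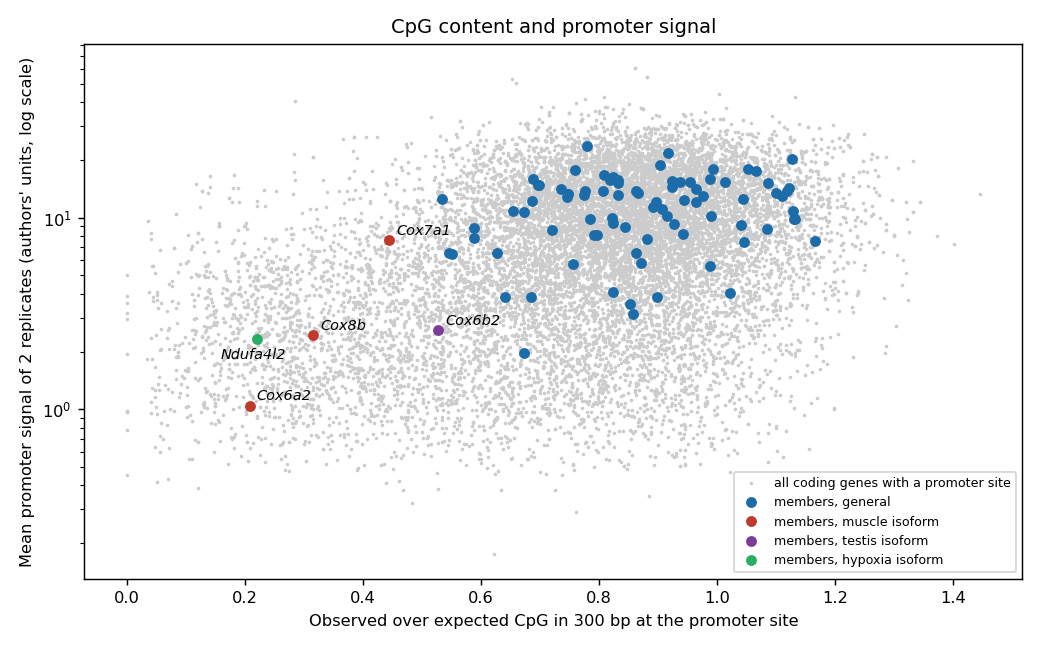
Observed over expected CpG ratio in 300 bp at the promoter site against mean promoter signal of both replicates (authors' units, log scale), with members in colour and all coding genes in grey. The 5 labelled tissue isoforms have CpG ratios of 0.208 to 0.528, at the left of the other members.

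The NRF1, YY1 and receptor elements were present at larger shares of members than of all genes. Exact matches on either strand were sought in 300 bp around the middle of the promoter site of 91 members, and the same windows of all 13959 genes with a shared site, members included, gave the background. The full NRF1 element was present at 8 members, or 8.79%, against 2.29% of all genes, and at all 8 the match shared bases with footprints of both replicates, as it did for nearly all NRF1 matches of the genome, at 2.24% of all genes. Its inner core CGCATGCG, which every longer match contains, was present at 12, or 13.2%, against 4.18%. The YY1 element AAGATGGC was present at 20, or 22.0%, against 5.27%. The receptor element AAGGTCA was present at 9, or 9.89%, against 2.16%, and its extended ERR form TCAAGGTCA at 2, Atp5g3 and Sdhd, or 2.20%, against 0.143%. Neither ERR match touched a footprint of both replicates.

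The 8 NRF1 sites are shown with 10 bases on each side, in the direction of the gene, with the element in capitals; its sequence is its own reverse complement.
Atp5g2: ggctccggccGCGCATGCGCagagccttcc
Atp5k: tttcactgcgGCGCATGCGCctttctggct
Cox6a1: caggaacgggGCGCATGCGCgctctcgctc
Ndufa11: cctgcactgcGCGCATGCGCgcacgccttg
Ndufa13: aatcgaggatGCGCATGCGCtctccagcaa
Ndufaf4: ccagatgtctGCGCATGCGCctgtgcggaa
Ndufaf5: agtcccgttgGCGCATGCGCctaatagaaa
Uqcrc1: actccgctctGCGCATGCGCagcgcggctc
They lay between 782 bp upstream (Ndufa13) and 45 bp downstream (Uqcrc1) of the annotated starts. At 7 of the 8 genes all 10 bases of the element were in footprints, and at Atp5k 5 of the 10. The 8 genes came from complexes I, III, IV and V and the assembly factors, and none was a tissue isoform.

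The YY1 element contains ATG, and at most members it lay on a start codon. Of 21 matches at the 20 members, 17 were at or after the annotated transcription start, and 16, or 76.2%, put their ATG on an annotated start codon of a gene on the same strand. Over all genes this held for 314 of 753 matches, or 41.7%. The match shared bases with a footprint of both replicates at 8 members, or 8.79%, against 2.36% of all genes. 7 of these are printed with 10 bases on each side in the direction of the match, with the element in capitals.
Atp5h: gcggcggcccAAGATGGCggagctgcag
Atp5j2: ccaggacttcAAGATGGCgtcactcggt
Atp5o: cgcccgggaaAAGATGGCcgcgcctgca
Ndufaf8: ggcagggcccAAGATGGCggcgccctcg
Ndufb8: ggagaaggtgAAGATGGCtgccgcccgg
Ndufc1: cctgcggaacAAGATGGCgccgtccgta
Uqcrh: tgacctcttcAAGATGGCggcccgcggg
In 5 of these 7 the ATG was an annotated start codon, the exceptions being Ndufaf8 and Uqcrh. The Atp5h and Uqcrh matches ran against the direction of the member, 210 and 296 bp upstream of its start, towards the neighbours Kctd2 and Lrrc41. An element on a start codon belongs to coding sequence as well as to the promoter, and whether YY1 binds these sites was not measured.

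In these 300 bp windows, other promoter elements and muscle elements differed less from all genes or were on few members. The ETS element CCGGAAG was present at 22, or 24.2%, against 18.4% of all genes, and the CREB element TGACGTCA at 5, or 5.49%, against 3.68%. From 250 bp before to 50 bp after the RefSeq 5′ end, ETS was present at 17 of 74 members, against 12.3% of all RefSeq promoters. The SP/KLF element GGGCGG was present at 51, or 56.0%, against 70.7% of all genes. The E-box CAGCTG was present at 15, or 16.5%, against 18.1%, and the E-box CACGTG at 6, or 6.59%, against 10.6%. The MEF2 match was present at Cox5b, Cox6a2 and Ndufaf5, or 3.30%, against 2.44%. The TATA box TATAAA was present at 4, or 4.40%, against 3.83%, and the TEAD element ACATTCC at Cox5a, or 1.10%, against 2.17%. A match is a run of letters and not a bound site, and no match says only that these letters were not in the window.

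**Figure D5:**
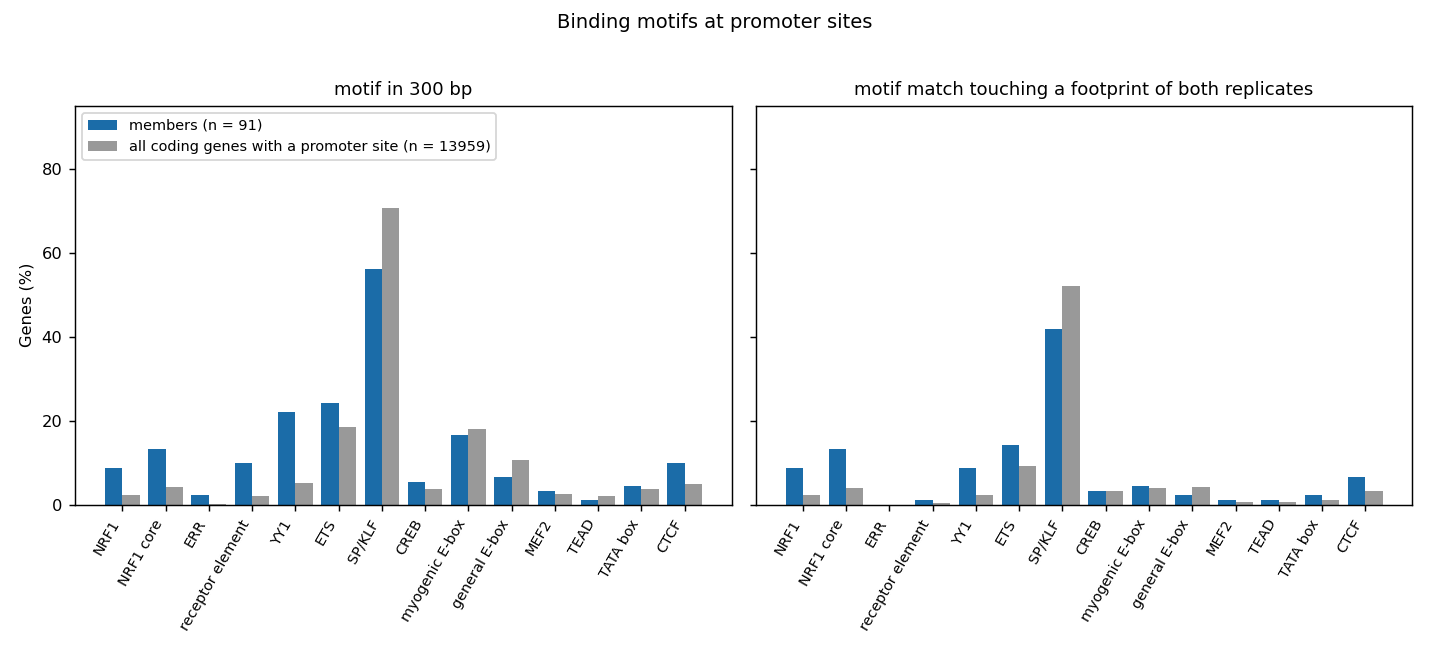
Share of genes with each element in 300 bp at the promoter site, for the 91 members (left bar of each pair) and all 13959 coding genes with a shared site (right bar). The left panel counts all matches and the right panel matches that share at least 1 base with a footprint of both replicates; the right panel has NRF1 at 8.79% of members and 2.24% of all genes and YY1 at 8.79% and 2.36%.

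The genes of the regulators themselves were open too. A promoter peak in both replicates was present at 14 of 14 genes on the list, against 63.8% of all genes, with medians of 12.5 and 10.7. Esrra, the receptor ERR alpha, was highest with 37.0 and 31.5, followed by Yy1 with 24.5 and 20.3. Ppargc1a, the coactivator PGC-1 alpha of mitochondrial biogenesis, was lowest with 0.692 and 0.778, at percentile 1.82 of all genes with a peak. Esrrg had 1.03 and 1.62. Nrf1 had 11.4 and 9.11. Slc25a4, the muscle and heart carrier that exports ATP from mitochondria, had 21.6 and 20.5, while Ckmt2, the mitochondrial creatine kinase of striated muscle, had 2.32 and 2.02.

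The 3 members on the X chromosome were all low. Ndufa1 had 4.11 and 3.97, Ndufb11 4.10 and 3.62 and Cox7b 1.91 and 2.01. All coding genes on the X with a peak had medians of 4.09 and 3.62, and those on autosomes 8.14 and 7.35, so Ndufa1 and Ndufb11 lay near the X median and Cox7b below it. The libraries were from females.

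The replicates gave nearly the same order of members. Across the 91 genes the Pearson correlation of log2 signal between replicates was 0.98 and the Spearman correlation 0.96, given as descriptions over genes. Replicate 1 was higher at 78 members and replicate 2 at 13, against 10902 and 3067 of all genes with a peak. Over all genes the median log2 ratio of replicate 2 to replicate 1 was -0.17. The SD of that ratio was 0.19 over members and 0.22 over all genes. The lowest ratios were at Cox7a2, Atp5l and Atp5b, and the highest at Ndufb2, with 7.17 and 9.13, Ndufa4l2 and Uqcrb. The low ratio of Cox7a2 is part of the difference between replicates in the comparison of Cox7a1 with Cox7a2.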

How the data were processed

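For each of 2 libraries, strict and permissive peaks, footprints and per-base rates were used, on mm10 per the labels, with replicates not pooled by the authors. The deposited peak signal is the authors' value per peak, and the sources used here name neither its scaling nor the aligner and callers. The deposited footprints carry 1 level, a false discovery rate of 0.01, and the deposited per-base files give q-values (false discovery rates) only where below 0.05. Read depth is unknown, so no counting interval is given.

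From these files the strongest strict peak with its midpoint within 1000 bp of any GENCODE vM21 transcript start of a gene gave its promoter signal. Peaks of both replicates that overlapped by at least 1 bp were merged into shared sites. Genes were combined by symbol (95 member records gave 94 symbols). Sequences are those of the GRCm38.p6 reference from RefSeq, not of the CAST allele, and alleles were not separated. Computations used Python 3.11.15, numpy 2.4.6, pandas 2.3.3 and pysam 0.24.0, and scripts were tested on simulated data. With 1 group of 2 libraries, no test was possible, and lists are described by counts and medians beside all genes.

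The members, lists, elements and alternatives were chosen with earlier results of these data known. Genes were named by rule: all isoforms and their general forms, the 2 highest and 2 lowest of each complex, members without a peak, the 5 with most distal sites, the 3 with most footprints and the 3 at each end of the replicate ratio, plus the highest genes of other lists. Atp5b, Atp5g1, Atp5g3, Cox7a2l, X-linked genes, genes at shared promoters or with a given element, Ppargc1a, Esrrg, Nrf1 and Ckmt2 were added after their values were seen. A gene and a site that the rule takes in are not reported here. The alternatives were permissive peaks, the stronger 50% of peaks, windows of 200 (added later), 500 and 2500 bp, the 5′ end only, summed peaks, other footprint and overlap rules, assignment within 20 and 100 kb, elements from 250 bp before to 50 bp after the 5′ end or inside footprints, and each replicate alone.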

Additional observations from a re-analysis of the deposited data

How the results depend on the processing

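Under the alternatives run, no value changed sign. Leaving out 1 replicate, the members with a promoter peak numbered 91 to 92 and those with a footprint 91 to 92, their median signal was 10.8 to 12.4, and those with a distal site numbered 45 to 46. The log2 ratio ranged from -4.24 to -3.95 for Cox6a2 over Cox6a1, from -1.22 to -0.69 for Cox7a1 over Cox7a2 and from -2.47 to -2.36 for Cox8b over Cox8a. With a window of 2500 bp the upstream sites replaced the promoters, which gave -3.56 for Cox6a2 over Cox6a1 and -1.92 for Cox8b over Cox8a. Within 200 bp of a start, a setting chosen after seeing the data, 87 members had a peak in both replicates.

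Counting elements only where they shared a base with a footprint of both replicates gave 0 members for ERR, 1 for the receptor element, 8 for YY1, 13 for ETS, 3 for CREB, 4 for the E-box CAGCTG, 2 for CACGTG, 1 for MEF2, and 2 for the TATA box, with NRF1 at 8 and the CTCF core at 6. The shares over all genes were 0.00716% for ERR, 0.387% for the receptor element, 2.36% for YY1, 9.13% for ETS, 3.27% for CREB, 4.08% for CAGCTG, 4.18% for CACGTG, 0.695% for MEF2, 1.02% for the TATA box, 2.24% for NRF1 and 3.37% for the CTCF core. In the RefSeq windows from 250 bp before to 50 bp after the 5′ end, which cover 74 members, the counts were 9 for YY1, 33 for SP/KLF, 6 for CAGCTG, 2 for TEAD, 7 for the TATA box and 5 for the CTCF core. The share over all RefSeq promoters of the same length was 3.29% for YY1, 48.0% for SP/KLF, 15.2% for CAGCTG, 3.30% for TEAD, 12.9% for the TATA box and 2.38% for the CTCF core. The causes of these changes were not tested beyond the fewer members covered and the shorter reach. No paired analysis was possible because there was 1 group. Unknown read depth limits how far a missing peak can be read as closed chromatin.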

Other observations

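The CTCF core (CCA, AG and GGC with 2 free bases between each), added after the sequences had been seen, was present in the promoter window of 9 members, or 9.89%, against 4.85% of all genes, and shared bases with footprints of both replicates at 6 of them, with Ndufa6, Ndufaf4, Ndufb6, Ndufv1 and Uqcrc1 among these. In 300 bp around the middle of distal sites it was present at 16 of 89 assigned to members, or 17.98%, against 15.2% of all distal sites. Distal sites of members held no NRF1 element, 0 of 89, which was also rare over all distal sites at 0.154%. The E-box CAGCTG was present at 27 of 89, or 30.3%, against 34.7%, and the SP/KLF element at 5, or 5.62%, against 14.95%.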
